A study of Mus musculus with 30 samples.

Results

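The 6 genes described here encode receptors that bind chemokines or related chemoattractants: Ccr1, Ccr2, Ccr7, Cxcr4, Cx3cr1 and Ccrl2. They were taken by name, 6 of 16358 genes with a named probe, and each was measured by the probe brightest in Cy5 on average. All 6 were among the 11270 genes that passed the filter on dim probes, Ccr2 and Cx3cr1 without being well above background on every array. Chemokine receptors are G protein-coupled receptors that steer cells along gradients of secreted chemokines. Ccr2 is the receptor that monocytes and their descendants use to leave the bone marrow and enter inflamed tissue, and Ccr7 guides mature dendritic cells to lymph nodes, so the pair is often described as a switch from tissue entry to lymph node homing. LPS, a bacterial cell wall component sensed by the receptor TLR4, is a standard trigger of dendritic cell maturation in culture.

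The arrays measured RNA of dendritic cells grown in culture from bone marrow of C57BL/6 mice and purified afterwards on magnetic beads for CD11c. All donors carried CD11c-Cre, a Cre recombinase driven by the promoter of a dendritic cell integrin. Controls carried it alone, and KO donors (CD11c-Cre IRF-4 flox/flox) also carried loxP-flanked alleles of Irf4, which encodes an interferon regulatory factor active in lymphoid and dendritic cells, so deletion depends on where and how well this Cre acts. Either genotype was left without LPS or given it for 6 or 24 h, which gave 6 groups of 5 biological replicates on 30 arrays. The labels used here do not state the age of the mice, nor if replicates were separate mice or separate cultures, and p-values therefore reflect only how these samples vary. Each array set its sample (Cy5) against a universal mouse reference RNA (Cy3), and a level below is the log2 ratio of sample to reference, a quantity that cannot be ranked between genes.

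Irf4, the targeted gene, was below the control level in KO cells by 2.90, 2.42 and 2.17 on the log2 scale without LPS, at 6 h and at 24 h, with no overlap between arrays (limma adjusted p = 3.61e-08, 8.85e-07 and 2.70e-06). No label places its probe inside or outside the deleted exons. Of 10 listed dendritic cell markers, 9 were well above background on all 5 arrays of every group. Array medians of Cy5 lay between 101 and 151, and 44.9 to 66.2% of 41174 probes were well above background. Control replicate 3 at 6 h of LPS and control replicate 2 at 24 h shared a slide with a later scan date and both had Ccrl2 near its unstimulated level, and KO unstimulated replicates 1 and 5 stood apart from the other 3 arrays of their group, so results that rest on these 4 arrays are given with and without them. The treatment labels of the later-slide arrays could not be checked with the files used here. KO unstimulated replicates 1 and 5 also had the lowest Irf4 of their group (-2.20 and -2.51, against -0.85, -1.06 and -0.84 in replicates 2 to 4), so values without them describe the arrays with more Irf4 signal. Of the 9 slides that carried the 30 arrays, 0 held both genotypes at a shared treatment. In bulk RNA, fewer cells of a type and less RNA per cell cannot be told apart.

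Ccr2, the receptor for the chemokines Ccl2, Ccl7 and Ccl12, was far lower in KO cells under every condition. In unstimulated control cells its log2 ratio was 6.35, 6.62, 6.59, 6.57 and 6.84 in replicates 1 to 5. In unstimulated KO cells it was 1.20, 4.57, 4.08, 4.15 and 1.97. Every KO array lay below every control array, and KO replicates 1 and 5 were far below the other 3. The means were 6.59 ± 0.17 and 3.20 ± 1.505 (SD, n = 5 each), a difference of -3.40 (SE 0.53, 10.5-fold, limma adjusted p = 6.68e-05). Without KO replicates 1 and 5 the difference was -2.33 (adjusted p = 0.00236).

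The same contrast held after LPS. At 6 h Ccr2 was at 4.77, 4.50, 6.70, 5.39 and 6.02 in control cells, where replicate 3, the array on the later slide, was the highest. In KO cells it was at 0.77, 1.18, 0.67, 2.48 and 1.81, and the groups did not overlap. The difference was -4.09 (SE 0.53, 17.1-fold, limma adjusted p = 8.61e-06). At 24 h the control arrays read 5.03, 4.74, 4.94, 3.85 and 4.43. The KO arrays read 0.44, 0.59, 0.34, 2.15 and 2.01, of which only replicates 4 and 5 were well above background. The groups did not overlap, and the difference was -3.49 (SE 0.53, limma adjusted p = 4.44e-05), a size set in part by 3 KO arrays at background. It was -4.44 within replicates 1 to 3 and -2.06 within replicates 4 and 5.

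Ccr2 was lower after LPS in both genotypes, in control cells only on some scales. In control cells the mean went from 6.59 ± 0.17 to 5.48 ± 0.90 at 6 h and 4.60 ± 0.48 at 24 h (SD, n = 5 each). The 24 h fall of 2.00 on the log2 scale was called (SE 0.53, limma adjusted p = 0.0144, no overlap between arrays), and the 6 h difference of -1.12 was not (adjusted p = 0.193). The 24 h call was lost with the scanner's log ratios (-0.037, adjusted p = 0.985) and with backgrounds as scanned (-1.27, adjusted p = 0.251). In KO cells the mean went from 3.20 ± 1.505 to 1.38 ± 0.76 and 1.11 ± 0.89, differences of -1.81 (adjusted p = 0.0121) and -2.09 (adjusted p = 0.00674), both called, with overlapping arrays at both times because of KO unstimulated replicates 1 and 5. Without these 2 arrays the KO differences were -2.89 and -3.16. The LPS responses did not differ detectably between genotypes: KO minus control was -0.70 at 6 h (SE 0.75, 95% interval -2.24 to 0.85, adjusted p = 0.944) and -0.09 at 24 h (SE 0.75, adjusted p = 0.98).

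**Figure D1:**
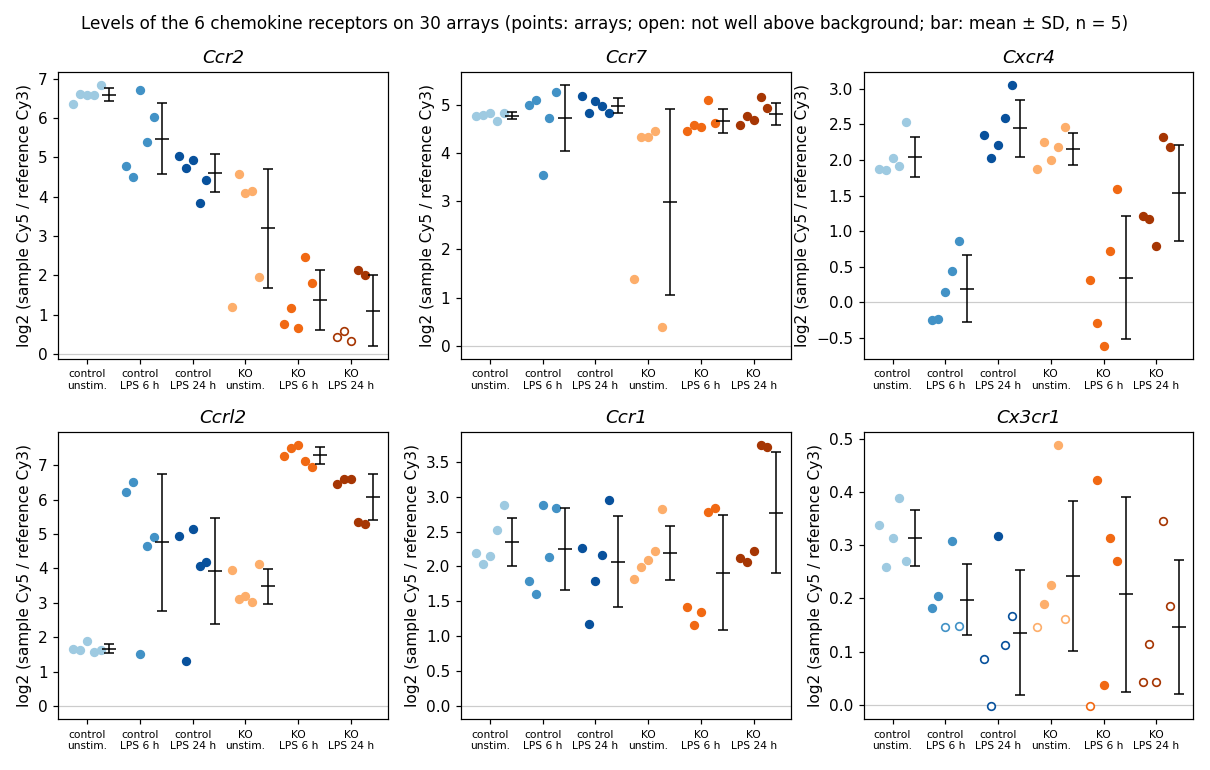
Log2 ratios of sample to reference for the 6 receptors on all 30 arrays, by group; points are replicates 1 to 5 from left to right, open points were not well above background, and bars are means ± SD. Ccr2 was lower on every KO array than on every control array of the same treatment, Cxcr4 dipped at 6 h in both genotypes, and Ccr7 was low on KO unstimulated replicates 1 and 5.

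Ccr7, the receptor for Ccl19 and Ccl21 that brings mature dendritic cells into lymph nodes, differed from Ccr2 in that its log2 ratio was high in 5 of the 6 groups. Unstimulated control arrays read 4.77, 4.78, 4.83, 4.66 and 4.84. Unstimulated KO arrays read 1.39, 4.34, 4.32, 4.46 and 0.40, all below all control arrays, with replicates 1 and 5 far below the rest. The means were 4.78 ± 0.07 and 2.98 ± 1.94 (SD, n = 5 each), a difference of -1.79 (SE 0.51, limma adjusted p = 0.018). The call rests on KO replicates 1 and 5: without both the difference was -0.40 (adjusted p = 0.331), without replicate 1 it was -1.40 (adjusted p = 0.0826) and without replicate 5 it was -1.15 (adjusted p = 0.064).

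After LPS the genotypes were close in Ccr7 log2 ratio. Control arrays at 6 h read 5.00, 5.11, 3.55, 4.72 and 5.26, with replicate 3 of the later slide the lowest, and KO arrays read 4.45, 4.58, 4.55, 5.10 and 4.62. The difference was -0.07 (SE 0.51, 95% interval -1.12 to 0.99, limma adjusted p = 0.958). At 24 h control arrays read 5.19, 4.84, 5.08, 4.97 and 4.84 and KO arrays 4.57, 4.76, 4.68, 5.16 and 4.93, a difference of -0.16 (SE 0.51, adjusted p = 0.881). In both comparisons the arrays of the genotypes overlapped.

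Against unstimulated cells, Ccr7 rose in KO cells by 1.68 at 6 h (SE 0.51, limma adjusted p = 0.0157) and by 1.84 at 24 h (SE 0.51, adjusted p = 0.013). In control cells the differences were -0.05 (adjusted p = 0.974) and 0.21 (adjusted p = 0.86). Without KO unstimulated replicates 1 and 5 the KO differences were 0.29 (adjusted p = 0.425) and 0.45 (adjusted p = 0.242). Without replicate 1 alone they were 1.28 (adjusted p = 0.0683) and 1.44 (adjusted p = 0.0578), and without replicate 5 alone the 6 h difference was 1.03 (adjusted p = 0.0602). The difference of responses, KO minus control, was 1.73 at 6 h (SE 0.73, adjusted p = 0.495) and 1.63 at 24 h (SE 0.73, adjusted p = 0.378), so the genotypes were not shown to differ in their Ccr7 response.

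The Ccr7 ratio has a property that bears on all of these values. The reference channel held the same RNA on every array, yet the background-subtracted Cy3 signal of the Ccr7 probe ranged from 22.0 to 887.5 and followed its Cy5 signal, which ranged from 28.5 to 53881 (r = 0.946 between log2 signals across the 30 arrays, given as a description, since both channels come from the same spots). The SD of its log2 Cy3 signal across arrays was 1.01, above that of 99.9% of the genes tested, whose median was 0.0911. A ratio whose denominator rises with its numerator moves less than the sample signal does. The 2 probes of Ccrl2 differed in the size of this effect: the brighter one had a Cy3 signal of 155.5 to 207 while Cy5 reached 50529.5 (r = 0.751). The second had a Cy3 signal of 107 to 870 that followed Cy5 (r = 0.965). The source of the Cy3 signal was not tested.

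**Figure D2:**
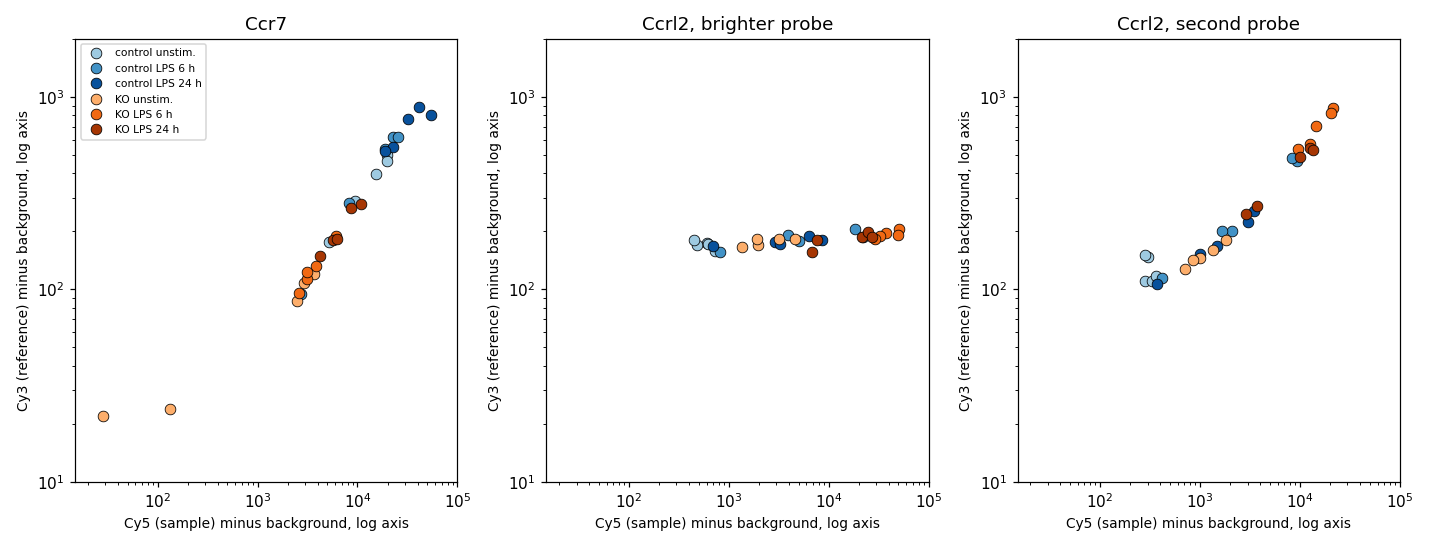
Background-subtracted Cy3 (reference) signal against Cy5 (sample) signal on the 30 arrays for the Ccr7 probe and both Ccrl2 probes, on log axes. The Cy3 signal climbed with Cy5 for Ccr7 (22.0 to 887.5) and for the second Ccrl2 probe (107 to 870) and stayed between 155.5 and 207 for the brighter Ccrl2 probe.

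On the Cy5 channel alone, after quantile normalisation between arrays, Ccr7 separated the genotypes more widely. Background-subtracted Cy5 was 15201, 19711.5, 19794, 9479 and 5180 on the unstimulated control arrays and 134, 3683.5, 2924, 2482.5 and 28.5 on the unstimulated KO arrays. At 24 h of LPS it was 32030, 53881, 41105, 22474 and 18760 in control cells and 4215, 5715, 6175.5, 10807 and 8679 in KO cells, again with no overlap. At 6 h it was 22580.5, 25345, 2707, 18943 and 8230 in control cells and 2583, 3824, 3155, 6115 and 3113 in KO cells, where the later-slide array, control replicate 3, was the only control array within the KO range.

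By limma on log2 Cy5 alone, Ccr7 in KO minus control cells was -3.76 without LPS (SE 0.80, adjusted p = 0.00175, called, as were 14.8% of genes on this channel). It was -1.33 at 6 h (adjusted p = 0.301, 12.6% of genes called) and -2.01 at 24 h (adjusted p = 0.09, 15.9% of genes called), neither of them called. The unstimulated value was -1.95 without KO replicates 1 and 5 (adjusted p = 0.0554), and the 24 h value then reached adjusted p = 0.012. Without the later-slide arrays the 6 h value was -2.07 (adjusted p = 0.0691). Against unstimulated KO cells, Ccr7 on Cy5 alone rose by 2.21 at 6 h (adjusted p = 0.0384, 28.7% of genes called) and by 3.02 at 24 h (adjusted p = 0.0085, 20.2% of genes called). Without KO replicates 1 and 5 these values were 0.41 (adjusted p = 0.698) and 1.21 (adjusted p = 0.212). In control cells they were -0.21 and 1.27, with neither called among the 11.9 and 12.0% of genes called on Cy5 alone.

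The Ccr2 reference signal was well above background on 2 of the 30 arrays (-1.5 to 34 after background subtraction), so its ratio is set against a denominator near background. Its log2 Cy3 signal also rose with Cy5 (r = 0.824), and had an SD of 0.179, above that of 89.4% of the genes tested. On Cy5 alone Ccr2 gave -3.81, -3.86 and -3.16 for KO minus control without LPS, at 6 h and at 24 h, all called. In control cells its LPS differences on Cy5 alone were -1.61 at 6 h (limma adjusted p = 0.0456) and -2.53 at 24 h (adjusted p = 0.00281), so the 6 h difference, not called as a ratio, was called on this channel.

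**Figure D3:**
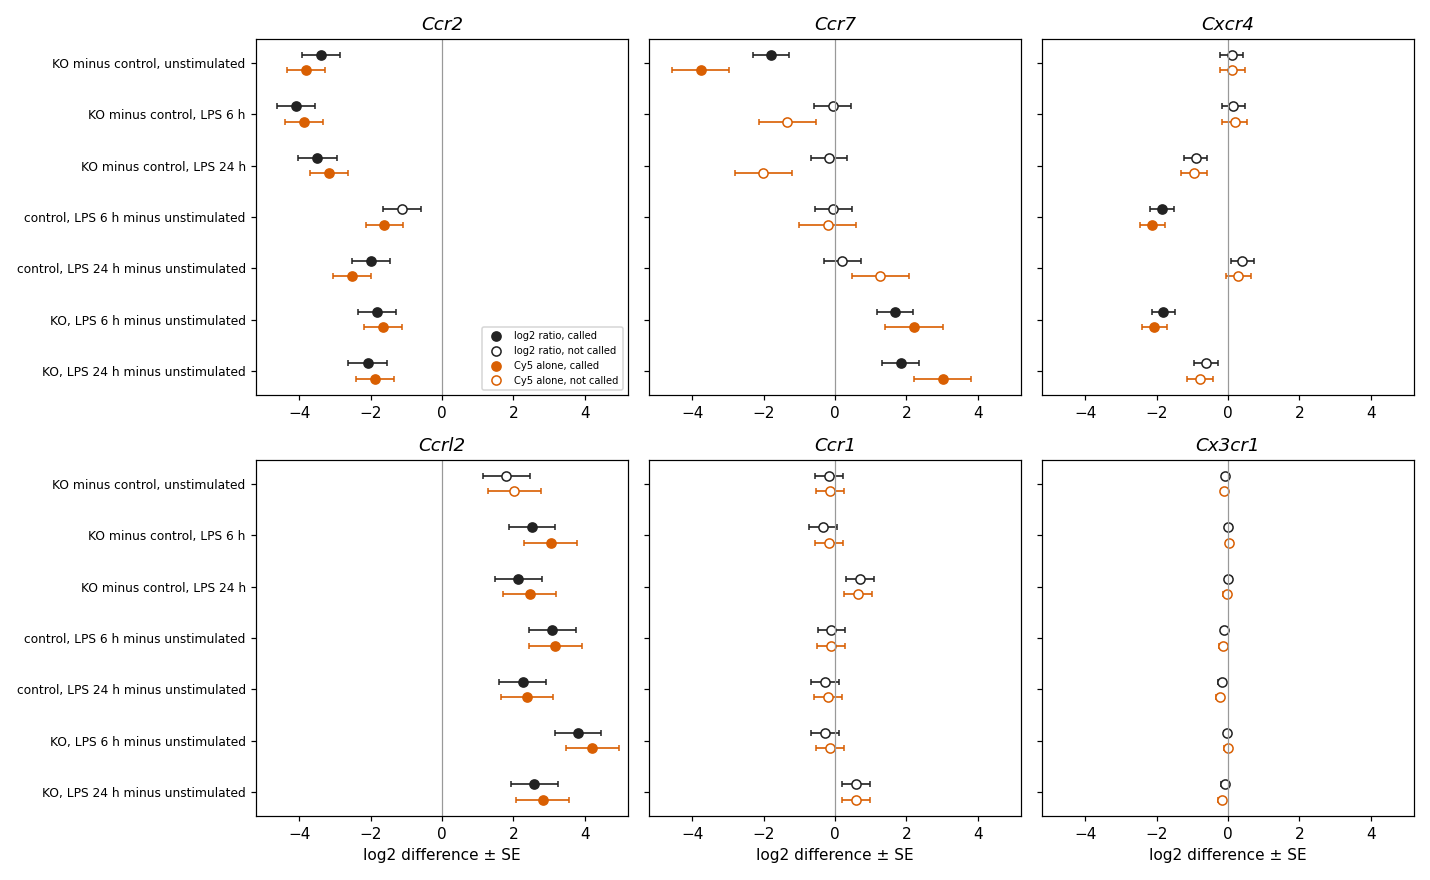
Log2 differences ± SE of the 6 receptors in 7 comparisons, from ratios to the reference (black) and from Cy5 alone (orange); filled points were called at an adjusted p under 0.05. Ccr7 moved from -1.79 to -3.76 in unstimulated KO against control cells between the scales, and Ccr2 lay on the same side of 0 on both.

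Setting Ccr7 against Ccr2 within each array gives a single value for the switch, the Ccr7 log2 ratio minus the Ccr2 log2 ratio, of which only changes between groups can be read. It was -1.58, -1.83, -1.75, -1.92 and -2.00 on unstimulated control arrays and 4.13, 4.17, 4.34, 3.01 and 2.92 on KO arrays at 24 h of LPS. In control cells the mean went from -1.82 ± 0.16 to -0.75 ± 1.46 at 6 h and 0.39 ± 0.43 at 24 h (SD, n = 5 each). In KO cells it went from -0.21 ± 0.79 to 3.28 ± 0.55 and 3.71 ± 0.69. The control change over 24 h was 2.20, of which Ccr2 made up -2.00 and Ccr7 0.21. On Cy5 alone it was 3.80, with -2.53 from Ccr2 and 1.27 from Ccr7, and with the scanner's log ratios it was 0.0257. The KO change over 24 h was 3.92, of which Ccr2 made up -2.09 and Ccr7 1.84. Without KO unstimulated replicates 1 and 5 it was 3.60, with -3.16 from Ccr2 and 0.45 from Ccr7.

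As ratios to the reference, the arrays of the 2 genotypes did not overlap in this value at any treatment, and neither did unstimulated and 24 h arrays of either genotype. On Cy5 alone the genotypes overlapped in it without LPS and at 6 h of LPS, but not at 24 h. At 6 h of LPS the KO minus control change was 4.03, nearly all of it Ccr2 (-4.09, against -0.07 for Ccr7). Control LPS 6 h replicate 3, the later-slide array, had the lowest value of all 30, -3.14. On Cy5 alone the unstimulated KO minus control change was 0.06 in place of 1.60, because Ccr7 and Ccr2 then differed by nearly the same amount, and the changes at 6 and 24 h were 2.53 and 1.15 in place of 4.03 and 3.32. Ccr2 and Ccr7 levels had r = 0.250 across the 30 arrays, and r = 0.588 between their deviations from the group means, which are descriptions over arrays that share groups and slides.

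**Figure D4:**
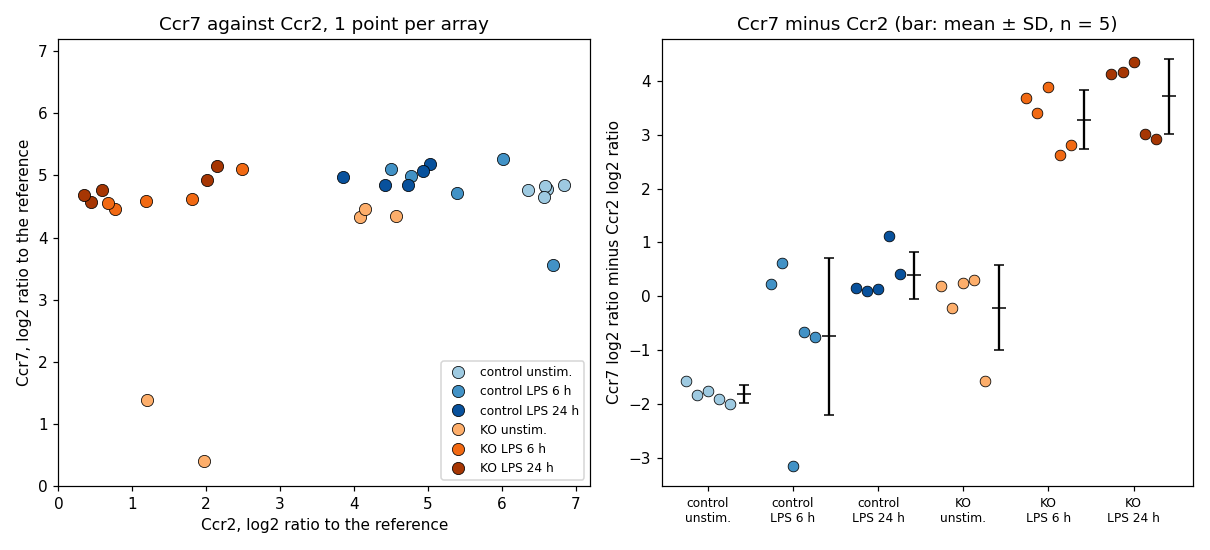
Ccr7 against Ccr2 log2 ratios, 1 point per array (left), and Ccr7 minus Ccr2 by group with mean ± SD, n = 5 (right). KO arrays after LPS lie at low Ccr2 with high Ccr7 ratios, with means of Ccr7 minus Ccr2 of 3.28 and 3.71 and every such array above all others. KO unstimulated replicates 1 and 5 are low in both genes. On Cy5 alone (not shown) mean log2 Ccr7 was 12.0 and 12.8 in KO cells at 6 and 24 h of LPS. It was 13.6, 13.4 and 14.8 in control cells without LPS, at 6 h and at 24 h. On that channel not every KO array after LPS lay above all others in Ccr7 minus Ccr2.

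Cxcr4, the receptor for Cxcl12 that holds cells in bone marrow and also guides dendritic cells toward lymphatic vessels, dipped at 6 h of LPS in both genotypes and was higher at 24 h than at 6 h. Control arrays read 1.88, 1.86, 2.03, 1.91 and 2.54 without LPS and -0.25, -0.23, 0.15, 0.44 and 0.87 at 6 h. At 24 h they read 2.34, 2.03, 2.21, 2.58 and 3.05. The 6 h arrays lay below all others of the control genotype: the fall was 1.85 on the log2 scale (-1.85, SE 0.33, limma adjusted p = 0.00083) and the rise from 6 to 24 h was 2.25 (SE 0.33, adjusted p = 0.00011). Of the later-slide arrays, the 6 h one (0.15) was in the middle of its group and the 24 h one (2.03) was the lowest of its group.

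KO arrays read 1.88, 2.25, 2.00, 2.18 and 2.47 without LPS and 0.32, -0.29, -0.61, 0.72 and 1.59 at 6 h, again without overlap (difference -1.81, SE 0.33, limma adjusted p = 0.000144). At 24 h they read 1.21, 1.18, 0.80, 2.32 and 2.19, and the rise from 6 h was 1.19 (SE 0.33, adjusted p = 0.0221), with overlapping arrays. Each array at 24 h was higher than the same-numbered one at 6 h, and the call stayed with a replicate block. The KO difference of 24 h from unstimulated cells, -0.62 (SE 0.33), was not called (adjusted p = 0.199), but adding to the fit a term that sets replicates 4 and 5 apart gave a call (adjusted p = 0.0262). The rise from 6 h was not called without KO LPS 6 h replicate 2 (1.03, adjusted p = 0.0759) or replicate 3 (0.95, adjusted p = 0.0949), and without KO LPS 24 h replicate 4 (1.00, adjusted p = 0.0709) or replicate 5 (1.03, adjusted p = 0.0651). KO minus control was 0.11, 0.15 and -0.91 without LPS, at 6 h and at 24 h, none of them called (adjusted p = 0.861, 0.825 and 0.0593). The 24 h difference was called without KO LPS 24 h replicate 4 (-1.10, adjusted p = 0.0227) or replicate 5 (-1.07, adjusted p = 0.0329), and without KO LPS 6 h replicate 3 or 5, which changed only the shared variance (adjusted p = 0.0434 and 0.029). It was called as well with that added term (adjusted p = 0.00214) and with median centring (-1.06, adjusted p = 0.0167). The second Cxcr4 probe gave -1.46 and -1.64 for the 6 h falls in control and KO cells and 1.88 and 0.98 for the rises from 6 to 24 h, all called as well, and its KO minus control difference at 24 h was called (-0.83, adjusted p = 0.0417).

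Ccrl2, an atypical receptor that binds chemerin without classical signalling and is induced by TLR ligands, rose with LPS and was higher in KO cells. Unstimulated control arrays read 1.65, 1.62, 1.89, 1.58 and 1.63, and unstimulated KO arrays 3.94, 3.12, 3.19, 3.01 and 4.13. The groups did not overlap, although the difference of 1.81 (SE 0.65) missed the threshold (limma adjusted p = 0.0649). Without the 2 later-slide arrays, whose spread enters the shared variance, it was called (1.81, adjusted p = 0.000313), as it was without control LPS 6 h replicate 3 alone (adjusted p = 0.0107) or control LPS 24 h replicate 2 alone (adjusted p = 0.0271). Without KO unstimulated replicates 1 and 5 it was 1.44 (adjusted p = 0.279).

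At 6 h of LPS Ccrl2 read 6.23, 6.52, 1.51, 4.65 and 4.91 in control cells and 7.27, 7.50, 7.59, 7.13 and 6.96 in KO cells. The control array at 1.51 was replicate 3 of the later slide, at the unstimulated level. The difference was 2.52 (SE 0.65, 5.76-fold, limma adjusted p = 0.0105) and 1.71 without the later-slide arrays (adjusted p = 0.00139). At 24 h control arrays read 4.94, 1.31, 5.15, 4.06 and 4.20, with replicate 2 of the later slide the lowest, and KO arrays read 6.46, 6.60, 6.60, 5.36 and 5.31. The difference was 2.14 (SE 0.65, adjusted p = 0.0253) and 1.48 without the later-slide arrays (adjusted p = 0.00495). Leaving out 1 array at a time ended the 24 h call without control LPS 24 h replicate 2 (1.48, adjusted p = 0.113) and without KO LPS 24 h replicate 1, 2 or 3 (2.04, 2.00 and 2.00, adjusted p = 0.0617, 0.0644 and 0.0644). Fitted on only the arrays compared, the 6 and 24 h differences were not called (limma adjusted p = 0.0883 and 0.0671). The unstimulated difference was called with that fit (adjusted p = 0.000365).

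Against unstimulated cells Ccrl2 rose by 3.09 at 6 h and 2.26 at 24 h in control cells (SE 0.65 each, limma adjusted p = 0.00281 and 0.0226) and by 3.81 and 2.59 in KO cells (adjusted p = 8.37e-05 and 0.00628). Without the later-slide arrays the control rises were 3.91 and 2.91. Fitted on only the arrays compared, the control rise at 6 h was not called (limma adjusted p = 0.0688). The control rise at 24 h was not called without control LPS 24 h replicate 1 (2.01, adjusted p = 0.0697) or replicate 3 (1.95, adjusted p = 0.0721). From 6 to 24 h Ccrl2 changed by -0.83 in control cells (adjusted p = 0.548; -1.65, adjusted p = 0.0396, without control LPS 6 h replicate 3) and by -1.22 in KO cells (adjusted p = 0.291; adjusted p = 0.0144 without the later-slide arrays), where the arrays did not overlap. The responses were not shown to differ between genotypes (KO minus control 0.72 at 6 h, adjusted p = 0.966, and 0.33 at 24 h, adjusted p = 0.933). The second Ccrl2 probe, whose Cy3 signal rose with Cy5, gave smaller differences in the same direction: 1.38 without LPS (adjusted p = 0.0282), 1.03 at 6 h (adjusted p = 0.118) and 1.18 at 24 h (adjusted p = 0.0599) for KO minus control.

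Ccrl2 and Ccr1 were the members with a match to the NF-kB motif, a site of the main TLR-activated transcription factor, before a start site. The RefSeq table of 300-base windows (250 bases before and 50 after each start, GRCm38.p6) held 5 of the 6 members, and the search covered both strands for NF-kB, the ETS-IRF composite element GGAANNGAAA, the interferon-stimulated response element GAAANNGAAA and AP-1 (TGANTCA). These were present in 8.46, 2.72, 3.44 and 7.81% of 32851 such windows. The ETS-IRF and interferon elements share the GAAA half-site. Ccr2, Cxcr4, Cx3cr1 and the other 2 start sites of Ccrl2 had no match to any of the 4, which says only that these letters are not in those windows. The 250 bases before the start are shown for the members with a match, on the minus strand of chromosome 9, 5′ to 3′, with the NF-kB match in capitals (bases -56 to -47 from the start for Ccrl2, matched on both strands, and -74 to -65 for Ccr1).
Ccrl2, chr9:111057519-111057768: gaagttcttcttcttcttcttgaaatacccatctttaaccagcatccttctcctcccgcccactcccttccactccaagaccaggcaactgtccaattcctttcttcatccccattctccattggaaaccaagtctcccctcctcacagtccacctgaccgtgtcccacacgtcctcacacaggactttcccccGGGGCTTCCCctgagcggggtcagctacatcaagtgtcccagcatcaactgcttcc
Ccr1, chr9:123968693-123968942: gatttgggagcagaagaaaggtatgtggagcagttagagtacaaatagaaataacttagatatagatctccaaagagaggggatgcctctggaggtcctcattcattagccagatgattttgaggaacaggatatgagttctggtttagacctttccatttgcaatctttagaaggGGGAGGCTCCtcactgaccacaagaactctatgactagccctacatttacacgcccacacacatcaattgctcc

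Ccr1, the receptor for Ccl3, Ccl5 and related inflammatory chemokines, was called in none of the 11 comparisons. Control arrays read 2.19, 2.03, 2.15, 2.52 and 2.87 without LPS, 1.80, 1.61, 2.88, 2.14 and 2.84 at 6 h, and 2.26, 1.17, 1.79, 2.16 and 2.95 at 24 h. KO arrays read 1.82, 1.99, 2.09, 2.22 and 2.82 without LPS, 1.42, 1.16, 1.35, 2.78 and 2.83 at 6 h, and 2.12, 2.06, 2.23, 3.74 and 3.71 at 24 h. In KO cells after LPS, replicates 4 and 5 lay well above replicates 1 to 3 at both times. The KO difference of 24 h from 6 h, 0.86 (SE 0.39, limma adjusted p = 0.188), was called once a replicate block was added (adjusted p = 0.0122), and it was 0.82 within replicates 1 to 3 and 0.92 within replicates 4 and 5. KO minus control was -0.16, -0.34 and 0.70 without LPS, at 6 h and at 24 h (adjusted p = 0.826, 0.639 and 0.252).

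Cx3cr1, the fractalkine receptor of monocytes and tissue macrophages, was near background throughout. It was well above background on 16 of 30 arrays and on 0 of 5 in KO cells at 24 h of LPS. Its log2 ratio ranged over all arrays from -0.0021 to 0.49, and group means ran from 0.14 to 0.31. None of the 11 comparisons was called. The smallest limma adjusted p was 0.212, for control cells at 24 h of LPS (difference -0.18, SE 0.09). Cx3cr1 passed the filter only through unstimulated control cells, also its highest group, so differences from that group are favoured by the filter and are descriptions. A second, dimmer Cx3cr1 probe was well above background on 2 of 30 arrays.

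Across the 6 receptors the order of group means differed by gene. Ccr2 ran from unstimulated control cells (6.59) through control LPS 6 h and 24 h to KO unstimulated, KO LPS 6 h and KO LPS 24 h (1.11), with each group overlapping its neighbour. Ccrl2 ran the other way between genotypes, from KO LPS 6 h (7.29) to unstimulated control (1.67), with no overlap between the first pair or the last pair of neighbours. The Ccr2 and Ccrl2 levels had r = -0.770 across the 30 arrays, and -0.524 between deviations from group means, as descriptions. For Ccr7, KO unstimulated was the lowest group (2.98) and the other 5 group means lay between 4.66 and 4.98. For Ccr1 and Cx3cr1 every group overlapped its neighbour.

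Counted over the 6 members, without LPS 0 were higher and 2 (Ccr2 and Ccr7) lower in KO cells, while 14.1% of all genes were called (6.96% higher and 7.13% lower). At 6 h of LPS 1 was higher (Ccrl2) and 1 lower (Ccr2), against 12.1% of genes called (6.23 and 5.87%). At 24 h 1 was higher (Ccrl2) and 1 lower (Ccr2), against 15.4% (6.97 and 8.43%). In control cells at 6 h of LPS 1 rose (Ccrl2) and 1 fell (Cxcr4), against 11.6% (7.14 and 4.50%). At 24 h 1 rose (Ccrl2) and 1 fell (Ccr2), against 12.3% (7.23 and 5.08%). From 6 to 24 h 1 rose (Cxcr4), against 5.47% (3.29 and 2.18%).

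In KO cells at 6 h of LPS 2 rose (Ccr7 and Ccrl2) and 2 fell (Ccr2 and Cxcr4), 4 of 6, against 26.6% of genes (14.2 and 12.4%). At 24 h 2 rose (Ccr7 and Ccrl2) and 1 fell (Ccr2), against 18.1% (10.3 and 7.84%), and from 6 to 24 h 1 rose (Cxcr4), against 7.75% (3.54 and 4.21%). By limma 0 of the 6 were called for a difference of responses between genotypes, although Ccr7 at both times and Cxcr4 at 24 h were under the threshold before adjustment, and 0.435% of genes were called at 6 h and 0.878% at 24 h. The median difference of the 6 members ran from -0.16 to 0.24 over the 11 comparisons, with members on both sides of 0 in each, and that of all genes from -0.04 to 0.03. The split of all called genes into higher and lower depended on scaling. With each array centred on its median, the share of called genes that were higher went from 49.4 to 37.1% for KO minus control without LPS, from 51.5 to 40.9% at 6 h, from 61.4 to 74.9% for control cells at 6 h and from 56.7 to 67.9% for KO cells at 24 h, and the median of all genes in KO cells at 6 h moved from 0.03 to -0.10. With the scanner's own log ratios it went from 61.4 to 48.5% in control cells at 6 h, from 58.7 to 48.2% at 24 h and from 53.5 to 42.2% in KO cells at 6 h, and with Cy5 alone from 61.4 to 48.9% and from 53.5 to 40.5% at 6 h. The few genes called for a difference of responses went from 67.3 to 77.8% higher at 6 h and from 48.5 to 60.8% at 24 h with the scanner's log ratios, and to 87.8 and 75.0% with median centring.

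Of 13 measured ligands of these receptors, 5 rose in control cells at 6 h of LPS and 0 fell, and 0 were called at 24 h by limma, against 7.14 and 7.23% of all genes called higher. In KO cells 8 rose at 6 h and 5 at 24 h, with 0 lower at either time, against 14.2 and 10.3% of all genes called higher. Ccl4, an inflammatory chemokine in this list, rose by 3.57 in control cells (limma adjusted p = 0.00976) and by 5.59 in KO cells (adjusted p = 4.11e-05) at 6 h. Ccl7, a ligand of Ccr2, rose by 3.11 (adjusted p = 0.0117) and 4.63 (adjusted p = 0.000106). The median over the 13 was 0.65 in control and 0.66 in KO cells at 6 h, against 0.0069 and 0.0252 for all genes. Ccl5, a ligand of Ccr1, was lower in unstimulated KO cells (-2.69, adjusted p = 0.0224) and rose there by 4.34 at 6 h (adjusted p = 0.000181), where control cells gave 0.65 (adjusted p = 0.7). For the difference of 6 h responses between genotypes, 0 of the 13 ligands were called, so Ccl5 was not shown to respond differently. Of all genes 0.435% were called for it.

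Between genotypes, without LPS 0 of the 13 ligands were higher and 2 lower in KO cells: Ccl5 and Cx3cl1, the ligand of Cx3cr1 (-1.95, limma adjusted p = 0.00271). At 6 h 0 were called in either direction. At 24 h 1 was higher, Ccl3 (2.04, adjusted p = 0.0206), and 1 lower, Cx3cl1 (-1.32, adjusted p = 0.0381). Of all genes 6.96, 6.23 and 6.97% were called higher at these treatments, and 7.13, 5.87 and 8.43% lower. Ccl2, the main Ccr2 ligand, rose in KO cells by 4.30 at 6 h (adjusted p = 7.22e-05) and 3.52 at 24 h (adjusted p = 0.0011), while Ccr2 itself fell there. In control cells Ccl2 rose by 2.79 at 6 h (adjusted p = 0.0121). Ccl19, a Ccr7 ligand named here after its values were seen, was called in none of these genotype or LPS comparisons, with values between -0.19 and 0.29.

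Of 18 other chemokine receptors 17 had a named probe and 10 passed the filter. Cxcr5, the receptor that draws cells to B cell follicles, rose in control cells by 0.73 at 6 h (limma adjusted p = 0.0453, at least 1.59-fold) and 1.52 at 24 h (adjusted p = 0.000182, at least 2.81-fold, since its probe was well above background on 0 of 5 unstimulated control arrays). It was lower in KO cells by 0.73 at 6 h (-0.73, adjusted p = 0.042, control at least 1.62-fold higher) and by 1.23 at 24 h (-1.23, adjusted p = 0.000676). Cxcr5 passed the filter only through control cells at 24 h, where its probe was well above background on 5 of 5 arrays. That group is also its highest, so calls that involve it are favoured by the filter and are descriptions. Cxcr2, a neutrophil receptor, was lower in KO cells at 24 h (-1.80, adjusted p = 0.0291), with a probe well above background on 1 of 5 KO and 4 of 5 control arrays. In KO cells Cxcr3 rose at 6 h (0.43, adjusted p = 0.00964) with a probe well above background on 2 of 5 arrays at 6 h and 1 of 5 without LPS. Over the 10, counts called higher and lower in KO cells were 0 and 0 without LPS, 0 and 1 at 6 h, and 0 and 2 at 24 h. Of all genes 7.13, 5.87 and 8.43% were called lower at these treatments.

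Of 20 measured genes that carry or end receptor signals, 0 were called higher and 4 lower in KO cells without LPS, 0 and 5 at 6 h, and 1 and 6 at 24 h. Of all genes 7.13, 5.87 and 8.43% were called lower. The list medians were -0.10, -0.19 and -0.27, against -0.04, -0.01 and -0.0048 for all genes. Rgs18, a regulator that shortens G protein signals, was lower without LPS (-1.91, limma adjusted p = 8.14e-05) and at 6 h (-1.14, adjusted p = 0.0137). Grk3, a kinase that desensitises receptors, was lower without LPS (-1.27, adjusted p = 0.000843) and at 24 h (-1.60, adjusted p = 6.29e-05). Rgs10 was lower at each treatment (-1.17, -1.05 and -1.35, adjusted p = 0.00312, 0.00903 and 0.000833). Gnai2, the inhibitory G protein subunit that these receptors use, was lower at 24 h (-1.03, adjusted p = 0.00326).

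With LPS, genes of this group were called in both directions. In control cells 2 rose and 4 fell at 6 h, and 3 rose and 3 fell at 24 h. Of all genes 7.14 and 7.23% rose there at 6 and 24 h, and 4.50 and 5.08% fell. In KO cells 5 rose and 6 fell at 6 h, and 4 rose and 2 fell at 24 h. There 14.2 and 10.3% of all genes rose, and 12.4 and 7.84% fell. Rgs2 fell at 6 h by 1.33 in control cells (-1.33, limma adjusted p = 0.00968) and by 2.78 in KO cells (-2.78, adjusted p = 1.27e-06). Arrb1, an arrestin that uncouples and internalises receptors, fell at 6 h as well (-1.91, adjusted p = 0.014, and -2.44, adjusted p = 0.000745). Rgs1, induced in activated leukocytes, rose in KO cells at 6 h (1.92, adjusted p = 0.0136).

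Of 24 genes of the migration machinery, 0 were higher in KO cells at any treatment, and 3, 5 and 6 were lower without LPS, at 6 h and at 24 h, where 7.13, 5.87 and 8.43% of all genes were. The list medians were -0.11, -0.23 and -0.23, against -0.04, -0.01 and -0.0048 for all genes. Coro1a, an actin regulator of leukocytes, was lower at all 3 (-1.83, -1.45 and -1.13, limma adjusted p = 8.47e-05, 0.00133 and 0.00853). Fscn1, the actin bundler of mature dendritic cell processes, was lower without LPS (-1.40, adjusted p = 0.0349) and at 24 h (-1.50, adjusted p = 0.0215). Dock2 and Elmo1, which activate Rac downstream of chemokine receptors, were lower at 6 h (-1.03, adjusted p = 0.0195, and -0.91, adjusted p = 0.0112), and Elmo1 also at 24 h (-1.21, adjusted p = 0.000826). Elmo1 was also called for a difference of 24 h responses (-1.71, adjusted p = 0.0102).

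With LPS, 2 of the 24 rose and 0 fell in control cells at 6 h, and 5 rose and 0 fell at 24 h. In KO cells 4 rose and 4 fell at 6 h, and 4 rose and 2 fell at 24 h. Of all genes 7.14 and 7.23% rose in control cells at 6 and 24 h, and 4.50 and 5.08% fell. In KO cells 14.2 and 10.3% of all genes rose, and 12.4 and 7.84% fell. Cd38, an ectoenzyme needed for Ccr7-guided migration, rose by 1.99 in control and 3.34 in KO cells at 6 h (limma adjusted p = 0.00689 and 9.34e-06). Marcksl1 was lower in unstimulated KO cells (-2.32, adjusted p = 0.00326) and rose there by 4.04 at 6 h (adjusted p = 2.71e-06), against 1.71 in control cells (adjusted p = 0.0343). For the difference of 6 h responses between genotypes, 0 of the 24 were called, against 0.435% of all genes.

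Markers of mature and migratory dendritic cells, a list without Ccr7 itself, were lower in unstimulated KO cells: of 17 measured, 0 were higher and 12 lower (median -1.08, against -0.04 for all genes). Ccl22 (-2.32, limma adjusted p = 8.05e-05, well above background on 3 of 5 KO arrays), Traf1 (-2.25, adjusted p = 0.000185) and Tnfrsf9 (-2.15, adjusted p = 0.00105) were the lowest of those called. At 6 h of LPS 1 was lower and at 24 h 4 were, with 0 higher. Of all genes 7.13, 5.87 and 8.43% were lower without LPS, at 6 h and at 24 h. In KO cells 13 rose and 0 fell at 6 h and 14 rose and 1 fell at 24 h, and in control cells 5 rose at 6 h and 10 at 24 h, with 0 lower. Of all genes 14.2 and 10.3% rose in KO cells, and 7.14 and 7.23% in control cells. The mean log2 ratio over the list ran from 0.74 to 1.82 on unstimulated KO arrays, from 2.47 to 2.58 on unstimulated control arrays, and from 3.00 to 3.29 on KO arrays at 6 h. The part of this list's level in the Ccr7 values was not tested.

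Of 10 measured monocyte markers, 1 was higher and 0 lower in KO cells without LPS, 0 and 1 at 6 h, and 1 and 1 at 24 h. With LPS, 0 rose and 2 fell in control cells at 6 h (median -0.33) and 3 rose and 2 fell at 24 h (median -0.79). In KO cells 1 rose and 4 fell at 6 h (median -0.20) and 2 rose and 3 fell at 24 h (median -0.84), against medians of all genes from 0.0069 to 0.0252. Of all genes 7.14 and 7.23% rose in control cells at 6 and 24 h, and 4.50 and 5.08% fell. In KO cells 14.2 and 10.3% of all genes rose, and 12.4 and 7.84% fell. The mean log2 ratio over the list was -0.80 to 0.16 on unstimulated control arrays and -0.22 to 0.0041 on unstimulated KO arrays. The marker F13a1 was well above background on 0 of 5 KO arrays at 24 h. Macrophage markers (2 of 10 higher without LPS, 1 at 6 h and 1 at 24 h, 0 lower) and neutrophil markers (1, 3 and 3 of 7 lower, 0 higher) stood against 6.96, 6.23 and 6.97% of all genes called higher and 7.13, 5.87 and 8.43% called lower. The neutrophil list had a mean log2 ratio of 1.07 to 2.12 on unstimulated control and 0.45 to 1.39 on unstimulated KO arrays. Its granule genes Ltf and Ngp were well above background on 0 of 5 KO arrays and 5 of 5 control arrays at either time after LPS. On unstimulated KO arrays the counts were 2 of 5 for Ltf and 1 of 5 for Ngp, so both genes passed the filter only through control groups. Their lower calls after LPS are favoured by the filter and are descriptions. Camp, also of this list, was well above background on 0 of 5 unstimulated KO arrays and 4 of 5 unstimulated control arrays, a difference that was not called (limma adjusted p = 0.37). In KO cells after LPS Camp was well above background on 4 of 5 arrays at 6 h and 5 of 5 at 24 h. At 24 h it was called higher than in unstimulated KO cells (limma adjusted p = 0.0389). Dendritic cell markers were also lower in KO cells (3, 4 and 2 of 9 lower, 0 higher), with a list mean of 2.36 to 2.88 on unstimulated control and 1.46 to 2.11 on unstimulated KO arrays. The part of these lists in the differences of the 6 receptors was not tested. Of the other lists, B cell (4 measured) and plasmacytoid dendritic cell markers (5) had 0 called between genotypes, T and NK cell markers (5) had 1 higher in each comparison, and mast cell, basophil and eosinophil markers (4) had 0, 1 and 2 lower. Prg2, called lower at both times after LPS, passed the filter only through control groups, so its calls are favoured by the filter and are descriptions. Its probe was well above background on 0 of 5 KO arrays at 6 h and 1 of 5 at 24 h. Erythroid and megakaryocyte markers (2) had 1 higher at 24 h, and stroma and endothelium markers (6) had 1 lower, then 1 higher and 1 lower, then 1 higher.

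Across all tested genes, those whose log2 ratios were most like Ccr7 over the 30 arrays were Aldh1a2 (Pearson r = 0.961), the retinoic acid-forming enzyme of migratory dendritic cells, the maturation marker Cd83 (0.926), Tspan33 (0.902), Il4i1 (0.881) and Ccl5 (0.872). Most like Ccr2 were Rnase6 (0.926), Smagp (0.925), Crip1 (0.908), Csk (0.906) and Lmo1 (0.898). For Ccrl2 they were Enpp4 (0.971), Il13ra1 (0.962) and Rab32 (0.949), and for Cxcr4 Acadm (0.860), Nmnat3 (0.858) and Iftap (0.856). For Ccr1 they were Akr1c12 (0.881), Trappc2l (0.880) and Tmem60 (0.865). The genes most like Cx3cr1, Wasf1, Slc20a2 and Fam13c, reached 0.619 to 0.627, the weakest of the 6 receptors. These arrays share groups, slides and a reference, so the values are descriptions.

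Some slides held both groups of an LPS comparison, and within them the differences had the direction found over all arrays for Ccr2, Cxcr4 and Ccrl2 between 6 h and no LPS. On the slide with 2 control arrays of each group, 6 h minus unstimulated was -2.07 for Ccr2, -2.47 for Cxcr4 and 4.77 for Ccrl2. On the slide with 1 KO array at 6 h and 3 unstimulated, it was -2.63 for Ccr2, -1.89 for Cxcr4 and 3.82 for Ccrl2. For Ccr7 it was 0.31 on the first slide and 1.39 on the second, where the 3 unstimulated KO arrays read 4.32, 4.46 and, for replicate 5, 0.40. For Cxcr4 the control difference of 24 h from 6 h was 1.41 and 1.88 within the 2 slides that held both, the second of them the later slide. No slide held both genotypes at the same treatment, so no within-slide value exists for the genotype comparisons.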

How the data were processed

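RNA of 30 samples was hybridised to 2-colour Agilent mouse arrays. Per the file headers, images were read by version 10.7.3.1 of Feature Extraction, with the sample in Cy5 and a universal reference in Cy3 on every array (no dye swap). The deposited scanner files give spot intensity per channel and the scanner's log10 ratio. The authors' deposited table holds log2 ratios, which correlated with the loess-normalised ratios computed here at 0.999885 to 0.999998 and had column medians of 0.0058 to 0.0183; the submitters' processing notes name limma. Median intensities were background-corrected (normexp, offset 50) and loess-normalised within arrays, with 1639 control spots at weight 0. Probes were named through RefSeq accessions (22951 of 41174 probes; 18223 had no match), and the brightest Cy5 probe stood for each of 16358 genes. The 11270 genes whose Cy5 signal was well above background throughout 1 group or more (5 of 5 arrays) were tested with limma 3.58.1 in R 4.3.3: 1 mean per group, all 30 arrays, 24 residual degrees of freedom, Benjamini-Hochberg adjustment over all genes, called at an adjusted p under 0.05. A bound ("at least") sets the brighter group's mean against, per array, the higher of the dim probe and the lowest signal well above background. Over 60 replicate pairs, replicates differed 1.61 to 15.6 times as much as repeated spots. In KO cells after LPS, pairs within replicates 1 to 3 or within 4 and 5 were far closer than pairs across these sets. Control replicates 4 and 5 were also close (SD of their difference 0.33 without LPS, 0.28 at 6 h and 0.19 at 24 h). Control pairs across the sets gave 0.42 to 0.99. The later-slide arrays stood apart within control replicates 1 to 3 (0.59 to 0.73). No probe was saturated (0), and the number of arrays limits the precision.

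The members and the 15 gene lists were chosen with earlier results of these data known. Named are all 6 members in every comparison, Irf4, the up to 3 called members of each list with the largest difference in the comparison described, and the genes best correlated with each member (5 for Ccr7 and Ccr2, 3 for the others). Same-numbered replicates deviated together (all 5 correlations over 0.1) between control cells at 24 h and without LPS (0.18 to 0.73), KO cells at 6 h and without LPS (0.11 to 0.66), and KO cells at 24 and 6 h (0.79 to 0.87); the design gives no other basis for pairing. Alternatives covered background, normalisation, filter, probe choice, slide, replicate block and single arrays left out; those without KO unstimulated replicates 1 and 5 and the combinations with Cy5 alone were added after the data were seen. Promoter windows are RefSeq's, on GRCm38.p6.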

Additional observations from a re-analysis of the deposited data

Results flagged for a closer look

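In 6 of 42 groups of 5 arrays, 1 array stood far from the nearest other by Dixon's criterion; chance alone gives about 1 in 20. In Ccr7, KO LPS 6 h replicate 4 was the highest of its group at 5.10, with the next at 4.62. In Cxcr4, control unstimulated replicate 5 was the highest at 2.54, with the next at 2.03. In Ccrl2, control unstimulated replicate 3 was the highest at 1.89, with the next at 1.65, and control LPS 24 h replicate 2, on the later slide, was the lowest at 1.31, with the next at 4.06. In Cx3cr1, KO unstimulated replicate 4 was the highest at 0.49, with the next at 0.22, for a probe near background. In Ccr7 minus Ccr2, KO unstimulated replicate 5 was the lowest at -1.57, with the next at -0.23. The causes were not tested.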

How the results depend on the processing

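Over the 66 tests of the members (6 genes, 11 comparisons), 3103 of 3201 values under alternatives kept their direction and side of the threshold, 46 were weaker, 48 stronger and 4 reversed, and 35 tests kept both under all alternatives run. Unless a value or construction is named, the cause was not tested. Leaving out 1 array at a time gave -2.16 to -1.15 for Ccr7 in unstimulated KO minus control cells, 1.03 to 2.05 for its KO rise at 6 h and 1.19 to 2.21 at 24 h. Without KO unstimulated replicates 1 and 5 these were -0.40, 0.29 and 0.45. Without the later slide as well, the adjusted p for -0.40 was 0.0648 and for 0.29 was 0.141, and Ccr2 in control cells at 6 h was called (-1.42, adjusted p = 0.0105). With Cy5 alone and without KO replicates 1 and 5, Ccr7 gave -1.95 without LPS, -2.01 at 24 h (called, adjusted p = 0.012), and KO rises of 0.41 and 1.21, and Ccr2 in control cells at 6 h gave -1.61. Cy5 alone gave -1.61 for it with all arrays and -2.06 without the later slide. With Cy5 alone Ccr7 minus Ccr2 changed by 0.0581, 2.53 and 1.15 between genotypes, by 3.80 in control cells over 24 h and 2.39 from 6 to 24 h, and by 4.89 in KO cells over 24 h.

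With the scanner's log ratios, which carry no offset, Ccr2 in unstimulated KO minus control cells was -2.06 (adjusted p = 0.1), Ccr7 -0.91 (adjusted p = 0.138), Ccr2 in control cells at 24 h -0.037 (adjusted p = 0.985) and the KO rise of Ccr7 at 24 h 1.11 (adjusted p = 0.0549). Ccr7 minus Ccr2 was then 5.95 between genotypes at 24 h, -0.0722 in control cells at 6 h (reversed), 0.0257 at 24 h and 4.82 in KO cells at 24 h. Median centring gave 2.64 between genotypes at 24 h and 2.57 in control cells at 24 h. With backgrounds as scanned, Ccr2 was -1.27 in control cells at 24 h (adjusted p = 0.251) and -1.81 in KO cells at 6 h (adjusted p = 0.0566), and Ccr7 minus Ccr2 in control cells at 24 h was 1.70. With only the arrays compared, Ccr7 was -1.79 between unstimulated genotypes (adjusted p = 0.126), 1.68 (adjusted p = 0.119) and 1.84 (adjusted p = 0.109) in KO cells after LPS, and Ccr2 -1.81 in KO cells at 6 h (adjusted p = 0.0584). With slide as a fixed block, which leaves few within-slide contrasts, Ccr7 was -1.25 between unstimulated genotypes, 1.39 in KO cells at both times, and Ccr2 -1.003 between genotypes at 24 h, -2.63 in KO cells at 6 h and 0.25 at 24 h (reversed). Ccrl2 then reversed to -1.17 between genotypes at 24 h, -0.57 in KO cells at 24 h and -5.33 for the 24 h difference of responses.

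With the replicate block, where numbers did not pair the groups, Ccrl2 between unstimulated genotypes (adjusted p = 0.0449), Ccr1 between genotypes at 24 h (adjusted p = 0.0264), and Cxcr4 between genotypes at 24 h (adjusted p = 0.00169), in KO cells at 24 h (adjusted p = 0.0216) and for the 24 h difference of responses (adjusted p = 0.0407) were called; besides Ccr1 in KO cells from 6 to 24 h (0.86, adjusted p = 0.0122), no other call of a member changed. Numbers of genes called ranged over the alternatives from 886 to 5703 (1588 reported) between unstimulated genotypes, 726 to 2806 (1364) at 6 h and 998 to 5073 (1735) at 24 h. For control cells they were 66 to 3874 (1312) at 6 h, 640 to 4717 (1388) at 24 h and 75 to 1666 (617) from 6 to 24 h. For KO cells they were 893 to 4881 (2999), 1098 to 6236 (2042) and 374 to 5846 (873), and for differences of responses 28 to 174 (49) and 20 to 6036 (99). Signal over background limits Cx3cr1 in all groups and Ccr2 in KO cells at 24 h.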
